A study of Rattus norvegicus with 6 samples.

Results

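Heat shock and unfolded protein response genes were followed in primary cortical cells of the rat after transfection with Math2, an older name of the neuronal basic helix-loop-helix transcription factor Neurod6. The set holds 34 genes, taken by symbol from the platform annotation of the Affymetrix Rat Genome 230 2.0 array. Of these, 30 had at least 1 probe set annotated to that symbol alone, 44 probe sets in all, and 41 of them passed the filter on low signal among 18625 tested probe sets (10417 gene symbols). All 30 genes kept at least 1 probe set past that filter. Ern1 was named by no probe set, and Hspa1b, Hspa8 and Hsp90aa1 were named only by probe sets that carry a second symbol. The 3 Math2 samples were cells given 13.3 µg of a Math2 expression vector, and the 3 control samples were cells given the same amount of a control vector. Both groups also received 2.7 µg of a vector for LNGFR, a nerve growth factor receptor cut short inside the cell, as a surface tag, and tagged cells were selected after 24 h, so the controls share transfection, tag and selection. The labels give no strain, age or vector promoter, and do not say whether replicates came from separate cultures, so p-values cover no more than the spread between these samples, and that spread may be technical.

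Cells answer misfolded protein by compartment. In the cytosol and nucleus, heat shock factor 1 (Hsf1) is held back by chaperones, and on release it binds heat shock elements and turns on Hsp70, Hsp90, small heat shock proteins and their cochaperones. In the endoplasmic reticulum (ER), the chaperone BiP (Hspa5) keeps the membrane sensors Perk (Eif2ak3), Ire1 (Ern1) and Atf6 silent, and once it is drawn off, Atf6 and spliced Xbp1 induce ER chaperones through ER stress elements. Perk slows translation and raises Atf4, which drives Ddit3 (Chop) and Trib3. Neurons make much membrane and secreted protein and are known to depend on both systems.

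Several of these genes carry the elements in their RefSeq promoters (GRCr8 assembly, 250 bases before to 50 after the start of the gene), which gives a sequence view of the cytosolic and ER groups. Of the 34 genes, 27 had a promoter among 33469 windows, and both strands were searched. A gene was counted if any of its windows matched, whereas the shares beside it are of single windows. The ER stress element, CCAAT and CCACG with 9 bases between them, was present in Hspa5, Hsp90b1, Calr, Canx and Xbp1, or 5 of 27, against 0.0657% of all windows. The second ER stress element, ATTGG and CCACG with 1 base between them, was present in Herpud1 and Hyou1, against 0.0508% of windows. The heat shock element, 3 alternating GAA and TTC units with 2 bases between units, was present in Hspa8, Hsph1, Dnaja1, Hspd1 and Hspe1, against 0.798% of windows. The unfolded protein response element TGACGTGG was found in Bag3 and Hyou1 (0.595% of windows), and the amino acid response element, which reads TTGCATCA in the Herpud1 stretch, in Herpud1 (0.795%). A match describes the letters and does not show a factor at work. The stretches below are upstream of the start, 5′ to 3′ on the gene's strand, with the elements in capitals on whichever strand they lie, and in Hyou1 the first capital run is TGACGTGG overlapping the second ER stress element.
Hspa5, plus strand, chr3:38452958-38453006: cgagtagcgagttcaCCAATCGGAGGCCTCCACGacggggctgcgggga
Hsp90b1, minus strand, chr7:23012332-23012484: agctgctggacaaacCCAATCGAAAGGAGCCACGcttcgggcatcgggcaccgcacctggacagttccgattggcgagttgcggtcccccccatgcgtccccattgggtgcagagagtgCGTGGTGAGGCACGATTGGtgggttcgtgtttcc
Xbp1, plus strand, chr14:84604543-84604591: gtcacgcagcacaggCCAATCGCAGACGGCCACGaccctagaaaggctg
Calr, plus strand, chr19:40213120-40213168: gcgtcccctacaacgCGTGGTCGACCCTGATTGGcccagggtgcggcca
Canx, minus strand, chr10:35158054-35158102: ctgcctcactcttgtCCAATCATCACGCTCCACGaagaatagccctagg
Herpud1, minus strand, chr19:10614806-10614906: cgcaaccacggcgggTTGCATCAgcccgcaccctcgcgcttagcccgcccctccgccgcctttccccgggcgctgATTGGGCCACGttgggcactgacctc
Hyou1, plus strand, chr8:53602676-53602819: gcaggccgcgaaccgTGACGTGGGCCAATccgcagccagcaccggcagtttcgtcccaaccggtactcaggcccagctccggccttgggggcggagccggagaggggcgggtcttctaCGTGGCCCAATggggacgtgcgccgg
Hspe1, plus strand, chr9:64084247-64084294: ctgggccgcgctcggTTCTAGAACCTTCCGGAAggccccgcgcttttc
Hsph1, plus strand, chr12:10427317-10427359: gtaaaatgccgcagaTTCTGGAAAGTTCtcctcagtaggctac
The Hspe1 stretch is shared. Hspd1 lies head to head with Hspe1 on the opposite strand, and the same 2 overlapping heat shock elements lie 48 to 65 bases upstream of Hspe1 and 225 to 242 bases upstream of Hspd1.

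The values are MAS5 signals on a linear scale, 1 per probe set and array, scaled by the authors. Median signals ran from 106 to 119 on the Math2 arrays and from 102 to 120 on the control arrays. Hybridization spike-ins had geometric means of 3392 to 5822 on the Math2 arrays and 1615 to 2225 on the control arrays. The 3′ to 5′ signal ratio of Gapdh, which climbs as labelled transcripts get shorter, was 8.48, 6 and 8.14 on Math2 arrays 1, 2 and 3 and 13.8, 3.74 and 5.04 on control arrays 1, 2 and 3. Neurod6, whose probe set may lie outside the transfected sequence, measured 312, 167 and 1546 on the Math2 arrays and 386, 207 and 973 on the control arrays. Its log2 difference was 0.021 (SE 0.745), with 2 of 3 pairs lower in Math2. These arrays therefore do not show the transfected gene raised, and the place of the probe set was not tested. Of 9 neuronal markers 7 were tested, with summed signals of 13369 to 26442 on the Math2 arrays and 13619 to 21826 on the control arrays. All 6 microglial markers had a mean signal below every array median (sums of 187 to 206 and 225 to 275). All 5 astrocyte markers were tested, with sums of 11687 to 21938 on the Math2 arrays and 13299 to 17283 on the control arrays. Oligodendrocyte lineage markers summed to 5896 to 9227 and 5596 to 8904, in the same order of groups. Of the 5 with a probe set 2 were tested, and Olig2, Sox10 and Mog averaged below every array median. Fibroblast and meningeal markers summed to 2894 to 4756 and 3126 to 5091. Of these 5, 3 were tested, and Dcn and Lum averaged below every array median. Cortical excitatory neuron markers, 2 tested of 3 with a probe set, summed to 343 to 1835 and 273 to 1121. The signal was thus not neuronal alone, though the oligodendrocyte and fibroblast sums rest on part of each list. Fewer cells of a type and less RNA per cell cannot be told apart in these bulk samples.

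None of the 30 genes differed between Math2 and control cells past the threshold of 0.05. In limma, a linear model fitted across all tested probe sets with Benjamini-Hochberg adjustment, every brightest probe set had an adjusted p of 1.00. With the replicate number as a block the smallest was 0.283, for Atf6b. Of all tested probe sets, the fit without the block called 0% higher and 0% lower, and the fit with it 0.0161% higher and 0% lower. With each gene represented by its brightest probe set, 14 genes had a log2 difference (Math2 minus control) above 0 and 16 below, with a median of -0.0019, and 45.7% of all tested probe sets lay above 0 with a median of -0.031. Single genes spread from -1.44 for Atf6b to 0.75 for Trib3.

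At an unadjusted p under 0.05, limma without the block named 2 of the 30, Atf6b and Hspa4, both lower, while 1.44% of all tested probe sets were lower and 1.75% higher by the same rule. With the block it named 6 of the 30, namely Atf6b, Hspa4, Bag3 and Hsp90b1 on the lower side (3.92% of all probe sets) and Trib3 and Hspe1 on the higher side (3.78%). By numbered pairs, Hspa4, Hspb1, Bag3, Hyou1, Pdia4, Atf6b and Eif2ak3 were lower on the Math2 array in 3 of 3 pairs, as were 15.2% of all probe sets, and Hspa9, Hspe1, Hspa5, Calr and Trib3 were higher in 3 of 3 pairs, as were 13.1%. Atf6b alone had groups that did not overlap, 1 of 30 genes on the lower side, where 4.3% of all tested probe sets were apart. On the higher side the count was 0 of 30, where 3.7% of probe sets were apart.

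**Figure D1:**
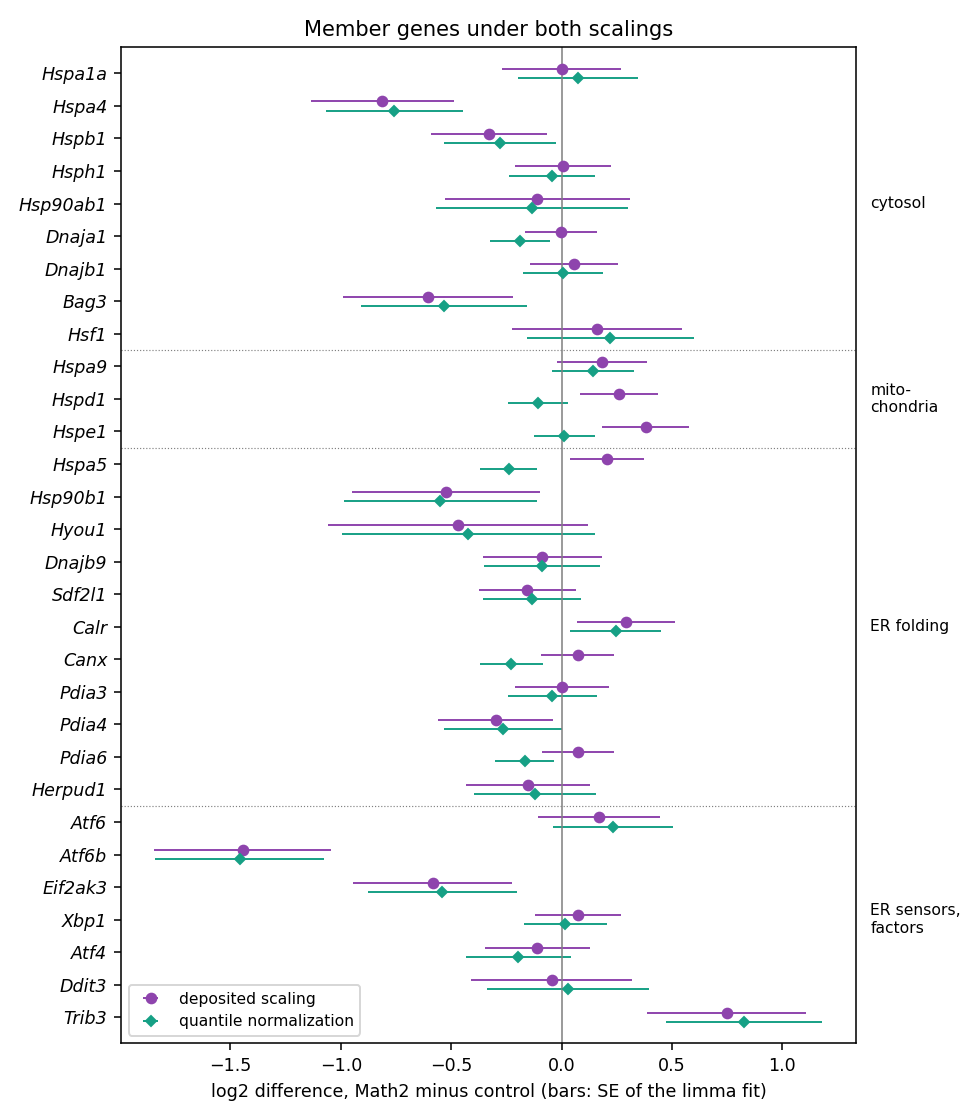
Log2 difference of Math2 minus control for the brightest probe set of 30 genes (bars, SE of the limma fit without the block, 3 arrays per group), under the deposited scaling (circles) and quantile normalization (diamonds). Atf6b, Hspa4 and Trib3 lie farthest from 0 under both, and Hspd1, Hspe1, Hspa5, Canx and Pdia6 shift to the left with quantile normalization.

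Cytosolic chaperones were measured by 9 of 12 genes, with 3 above 0, 6 below and a median log2 difference of -0.0037. Hspa1a, the stress-inducible Hsp70, had signals of 416, 459 and 524 on Math2 arrays 1, 2 and 3 and 547, 396 and 462 on control arrays 1, 2 and 3. Its groups overlapped throughout, with means of 466 ± 54.2 in Math2 and 468 ± 75.8 in control (SD, n = 3 each). Hspa4, a nucleotide exchange factor of the Hsp110 family that recharges Hsp70, measured 278, 403 and 498 on the Math2 arrays and 484, 795 and 807 on the control arrays. Every pair was lower in Math2, and the highest Math2 array lay just above the lowest control array. The log2 difference of Hspa4 was -0.81 (SE 0.324), or 0.569-fold (limma adjusted p = 1.00, and 0.376 with the block). Hsph1 encodes another Hsp110, and its brighter probe set measured 5028, 3778 and 3789 on the Math2 arrays and 4960.2, 3526 and 4047 on the control arrays (log2 difference 0.0080). A dim Hsph1 probe set measured 34.3, 86.5 and 117 on the Math2 arrays and 55, 190.0 and 226 on the control arrays, lower in 3 of 3 pairs, a log2 difference of -0.85 (SE 0.571).

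J-domain proteins hand clients to Hsp70, and Dnaja1 and Dnajb1 were the 2 cytosolic ones among the 34 genes. Dnaja1 measured 8562, 7958 and 7725 on the Math2 arrays and 8096, 7995 and 8194 on the control arrays. A second Dnaja1 probe set measured 5952, 4266 and 7134 in Math2 and 5334, 5861 and 5296 in control. Dnajb1, the main Hsp40 partner of inducible Hsp70, measured 4359.5, 3593 and 4855 on the Math2 arrays and 3862, 4226 and 4142 on the control arrays. Log2 differences were -0.0037 (SE 0.164) for Dnaja1 and 0.057 (SE 0.198) for Dnajb1. In both genes the groups overlapped and the pairs had mixed signs.

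Bag3 couples Hsp70 to small heat shock proteins and to selective autophagy. It measured 354, 583 and 224 on the Math2 arrays and 447, 799 and 468 on the control arrays, which put the log2 difference at -0.61 (SE 0.385), and the block gave a limma adjusted p of 0.591. Its groups overlapped through Math2 array 2, but each Math2 array lay below its control of the same number. Without Math2 array 3 the difference was -0.27. Hspb1, the small heat shock protein Hsp27, measured 761, 1039 and 1256 on the Math2 arrays and 1097, 1365 and 1316 on the control arrays, with a log2 difference of -0.33 (SE 0.262). Hsf1, the transcription factor of the response, measured 329, 484 and 214 on the Math2 arrays and 243, 442 and 226 on the control arrays. Its highest arrays were those numbered 2 in both groups, and its log2 difference was 0.16 (SE 0.384).

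Hsp90ab1, the constitutive cytosolic Hsp90, varied widely between arrays of a group. The brighter probe set measured 2528, 4357 and 2123 on the Math2 arrays and 1554, 5293 and 3567 on the control arrays, and the other 879, 5605 and 859 in Math2 and 869.9, 2674 and 1765 in control. Arrays numbered 2 were the highest in each group for both probe sets, and the log2 differences were -0.11 (SE 0.419) and 0.016 (SE 0.657). The probe sets with several symbols were kept out of the counts. Probe set 1372701_at, annotated to Hsp90aa1 and its pseudogene Hsp90aa1-ps17, measured 25402, 20915 and 21205 on the Math2 arrays and 17662, 15666 and 16761 on the control arrays, with no overlap. Its log2 difference was 0.43 (SE 0.154), and the block gave a limma adjusted p of 0.492. Probe set 1398240_at, annotated to Hspa8 and Haus8l2, measured 24532, 21823 and 18120.3 in Math2 and 15884, 15055 and 17820.5 in control, also without overlap, at 0.40 (SE 0.168). With quantile normalization these log2 differences were -0.10 and -0.12. In limma without the block their unadjusted p was 0.019 and 0.039, and 0.41 and 0.30 with quantile normalization. With probe sets of several symbols included, the median log2 difference was 0.0080 for the cytosolic chaperones and 0.0049 for all members. A second Hsp90aa1 and Hsp90aa1-ps17 probe set, 1388850_at, had 0.058, and 1368247_at, which Hspa1a and Hspa1b share, had 0.054.

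The 3 mitochondrial chaperone genes all lay above 0, with a median log2 difference of 0.26, against 0.013 after quantile normalization. Hspd1 and Hspe1 encode Hsp60 and its lid Hsp10, which fold imported proteins together and share the promoter printed above. Hspe1 measured 17926, 14612 and 10966 on the Math2 arrays and 10776, 11056 and 10926 on the control arrays. Math2 arrays 1 and 2 stood above all controls, and Math2 array 3 lay between controls 2 and 3. Hspd1 followed the same order of Math2 arrays, at 15236, 14792 and 11230.1, and the controls were at 10673, 12006 and 11472. The log2 differences were 0.38 (SE 0.197) for Hspe1 and 0.26 (SE 0.176) for Hspd1, and 0.013 and -0.11 with quantile normalization. Hspa9 (mortalin), the mitochondrial Hsp70 that pulls proteins through the inner membrane, measured 4229, 3158 and 3824 in Math2 and 3169, 3125 and 3525 in control, a log2 difference of 0.18 (SE 0.203) that was 0.14 with quantile normalization. Its dimmer tested probe sets had 0.22 and -0.37, and a further one did not pass the filter.

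**Figure D2:**
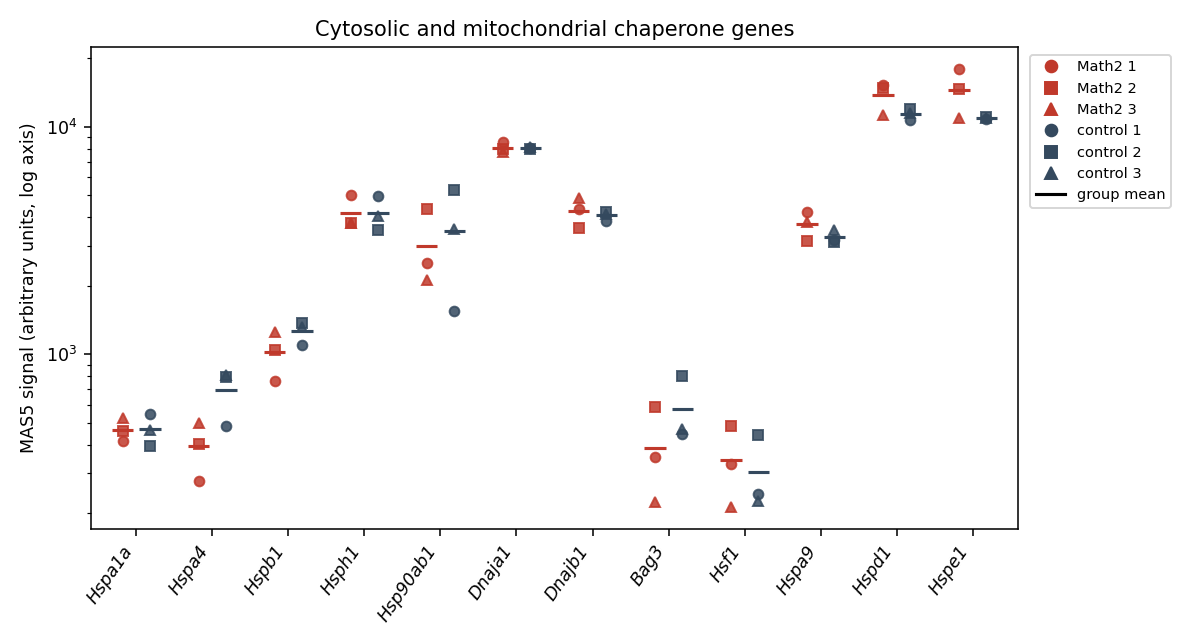
MAS5 signal (log axis) of the brightest probe set of 9 cytosolic and 3 mitochondrial genes on each Math2 (left) and control (right) array, with group means as lines. Hspa4 sits lower in Math2, Hspe1 and Hspd1 are higher on Math2 arrays 1 and 2, and Hsp90ab1 spreads widely within both groups.

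ER chaperones and folding enzymes were measured by all 11 genes, with 5 above 0, 6 below and a median log2 difference of -0.087. Hspa5, which encodes BiP and is the usual readout of ER stress, measured 17652, 18141 and 13914 on the Math2 arrays and 15499, 13924 and 13435 on the control arrays. It was higher in 3 of 3 pairs with overlapping groups, at 0.21 (SE 0.168), and the sign turned to -0.24 with quantile normalization. Hsp90b1 (Grp94), the ER Hsp90, lay on the other side at 1767, 5759 and 2673 in Math2 and 2577, 5751 and 5446 in control. The arrays numbered 2 were nearly equal, and the pairs numbered 1 and 3 lay apart. The log2 difference was -0.52 (SE 0.426), with an adjusted p of 0.582 in the blocked limma fit, and it was -0.14 without Math2 array 1. Hyou1, a large Hsp70 relative that serves BiP, measured 127, 500.4 and 113 on the Math2 arrays and 199, 561 and 178 on the control arrays, lower in 3 of 3 pairs at -0.47 (SE 0.590). Its second probe set did not pass the filter.

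BiP's J-domain partner Dnajb9 measured 2673, 1773 and 3559 on the Math2 arrays and 2373, 2930.4 and 2909 on the control arrays (log2 difference -0.087). Sdf2l1, a cofactor of the BiP cycle, measured 1704, 2416 and 2003 in Math2 and 2162, 2191 and 2409 in control (-0.16). Herpud1, which serves ER-associated degradation, measured 1120.0, 2009.9 and 1889 in Math2 and 1919.5, 1459 and 2088 in control (-0.15). For these 3 the Math2 range reached above or close to the highest control and below the lowest, and the sign of the pairs was mixed.

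The lectin chaperones Calr and Canx hold newly made glycoproteins. Calr measured 4361, 4032 and 3621 on the Math2 arrays and 3503, 3899 and 2529.8 on the control arrays. It was higher in 3 of 3 pairs, at 0.29 (SE 0.222), and remained above 0 with quantile normalization (0.25). Canx measured 12260.2, 11912 and 12278 in Math2 and 12640.4, 9992 and 12188 in control, a log2 difference of 0.073 that was -0.23 with quantile normalization. Its other probe sets had -0.0035 and -0.042. The dimmest of them ran from 61.0 to 533 on the Math2 arrays and from 22.8 to 712 on the control arrays, a spread that the brightest Canx probe set did not show.

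Protein disulfide isomerases form the bonds of secreted proteins. Pdia3 measured 4488, 4648 and 3498 on the Math2 arrays and 3517, 4723 and 4377 on the control arrays (log2 difference 0.0017). A dimmer Pdia3 probe set measured 411, 331 and 383 in Math2 and 446, 479 and 465 in control. This second probe set had no overlap between groups, with an exact two-sided permutation p of 0.1, below which 3 against 3 arrays cannot go. Its log2 difference was -0.31 (SE 0.261), away from the value of the brighter probe set, and the gap between them was not tested. Pdia4 measured 1563, 2086 and 1366 in Math2 and 1616, 2561 and 2003 in control, at -0.30 (SE 0.261). Pdia6 measured 10163, 10608 and 9499 in Math2 and 9693, 9006 and 10054 in control, at 0.074 (SE 0.162) and at -0.17 with quantile normalization.

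The ER stress sensors and factors held the widest differences of the set. Among 7 measured genes 3 lay above 0 and 4 below, with a median of -0.044 that was 0.018 with quantile normalization. Atf6b, a close relative of Atf6 that is likewise cut from the ER membrane, measured 32.3, 82.3 and 59.5 on the Math2 arrays and 133, 159.7 and 197 on the control arrays. The highest Math2 array lay well below the lowest control. The log2 difference was -1.44 (SE 0.401), or 0.368-fold on the log2(signal + 7.42) scale, with limma adjusted p = 1.00 without the block and 0.283 with it, and exact permutation p = 0.1. The Math2 mean of 58.0 lay below every array median, so the size is uncertain, and no detection call is used here. Atf6 itself measured 722, 780.4 and 657 in Math2 and 469, 723 and 764 in control, at 0.17 (SE 0.277). Its second probe set did not pass the filter.

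Eif2ak3 (Perk) measured 133, 314 and 291 on the Math2 arrays and 314, 350.2 and 387 on the control arrays, lower in 3 of 3 pairs at -0.58 (SE 0.362). Math2 array 1 was the lowest by far, and without it the log2 difference was -0.20. Downstream of Perk, Atf4 measured 4507, 6442 and 4836 in Math2 and 4177, 6285 and 6721 in control (-0.11, SE 0.238). Ddit3, the stress-induced factor Chop, measured 671, 1290.4 and 617 in Math2 and 630.0, 1293 and 719 in control (-0.044, SE 0.365). Both had nearly equal signals in the pairs numbered 1 and 2. Xbp1 is activated by splicing, and the sources used here do not say whether the probe set tells the spliced form apart. It measured 3834, 4453 and 5162 in Math2 and 4391, 3951 and 4348 in control (0.075, SE 0.196).

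Trib3, a pseudokinase induced by Atf4 and Chop, had the highest difference of the set, and its probe sets had opposite signs. The brightest measured 518, 772 and 309 on the Math2 arrays and 259, 369 and 265 on the control arrays, higher in 3 of 3 pairs. Its log2 difference was 0.75 (SE 0.361), or 1.68-fold, and 0.44 without Math2 array 2. The limma adjusted p was 1.00, and 0.502 with the block. Probe set 1370694_at measured 208, 269 and 243 in Math2 and 105, 254 and 134 in control, at 0.62 (SE 0.370). Probe set 1370695_s_at measured 152, 355 and 257 in Math2 and 362, 405 and 284 in control, lower in 3 of 3 pairs at -0.51 (SE 0.355). Among the 8 genes with several tested probe sets, Dnajb1 alone had the same sign in all of them and the other 7 were mixed.

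**Figure D3:**
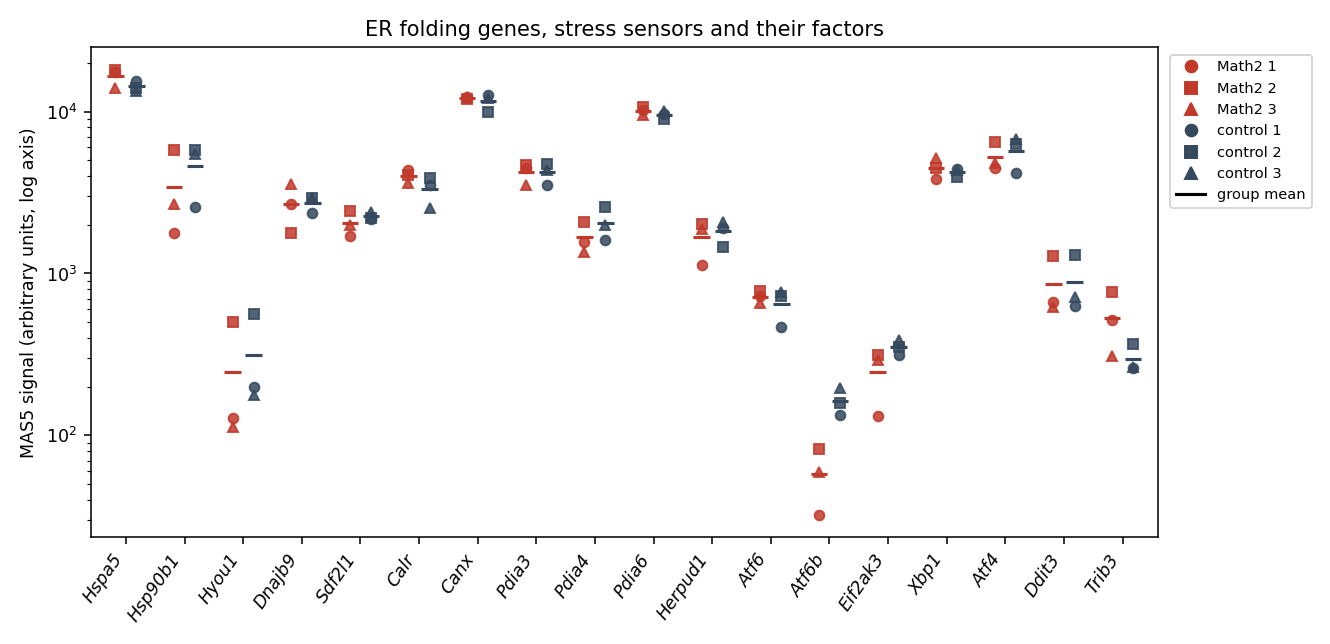
MAS5 signal (log axis) of the brightest probe set of 11 ER folding genes and 7 sensors and factors on each Math2 (left) and control (right) array, with group means as lines. Atf6b is the only gene whose groups do not overlap, Trib3 sits higher in Math2, and Hsp90b1, Hyou1 and Ddit3 spread widely within both groups.

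Set side by side, the cytosolic and ER chaperone groups gave medians of -0.0037 and -0.087 with the deposited scaling and -0.13 and -0.17 with quantile normalization, which gives all arrays one distribution of signals. The mean level of the cytosolic genes minus that of the ER chaperones, each gene centred on its own mean, was 0.032, -0.14 and -0.023 log2 units on Math2 arrays 1, 2 and 3 and -0.014, 0.098 and 0.047 on control arrays 1, 2 and 3, and the groups overlapped. After quantile normalization it was 0.14, -0.13 and -0.0064 on the Math2 arrays and -0.030, 0.039 and -0.012 on the control arrays, again with overlap. For carriers of either ER stress element, 4 of 7 lay above 0 with the deposited scaling and 2 of 7 with quantile normalization. Of the 4 tested carriers of a heat shock element, 3 lay above 0 with the deposited scaling, Hsph1 among them at 0.0080, and 1 of 4 with quantile normalization.

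The scaling mattered most for the brightest genes. Under quantile normalization 10 genes lay above 0 and 20 below, with a median of -0.13, against 14 and 16 with the deposited scaling, and 47.9% of all tested probe sets lay above 0. Among ER chaperones and folding enzymes Calr alone stayed above 0, 1 of 11. The sign turned for 8 genes, namely Hspa1a, Hsph1, Hspd1, Hspa5, Canx, Pdia3, Pdia6 and Ddit3. The brightest 1% of tested probe sets had a median log2 difference of 0.43 with the deposited scaling, and the spike-ins were higher on the Math2 arrays too, as given above. Their part in these values was not tested. Hspa5, Hspd1, Hspe1 and Canx belong to that percentile, and all 4 were above 0 yet below its median. Of all probe sets in that percentile, 186 of 187 (99.5%) lay above 0. After quantile normalization the percentile's median was -0.0046 and Hspe1 alone of the 4 was above 0. Atf6b (-1.46), Hspa4 (-0.76), Trib3 (0.83), Bag3 (-0.53) and Hsp90b1 (-0.55) moved little. The groups of Dnaja1, Atf6b and Eif2ak3 did not overlap after quantile normalization, all lower in Math2, or 3 of 30 where 3.89% of all probe sets were apart on that side, and 0 of 30 were apart on the higher side, where 3.06% were.

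**Figure D4:**
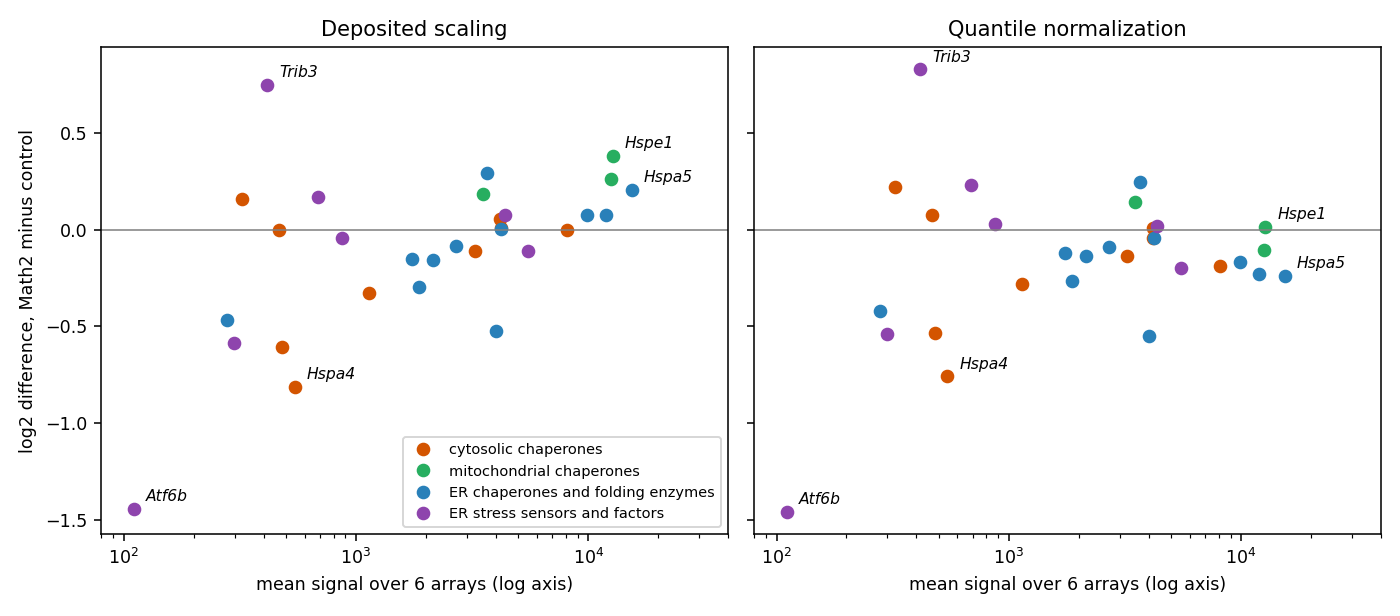
Log2 difference of Math2 minus control against mean signal over the 6 arrays (log axis) for 30 genes, with the deposited scaling (left panel) and quantile normalization (right panel). The brightest genes, Hspe1 and Hspa5 among them, lie above 0 on the left and near or below it on the right, and Atf6b, Hspa4 and Trib3 keep their places.

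Across arrays, the cytosolic, ER chaperone and sensor groups were low on the same arrays. Relative to each gene's own mean, the ER chaperones stood at -0.21, 0.23 and -0.16 log2 units on Math2 arrays 1, 2 and 3 and at -0.093, 0.20 and 0.038 on control arrays 1, 2 and 3. The sensors and factors stood at -0.38, 0.30 and -0.18 on the Math2 arrays and at -0.17, 0.25 and 0.17 on the control arrays. Cytosolic chaperones stood at -0.18, 0.084 and -0.18 in Math2 and at -0.11, 0.29 and 0.085 in control. The arrays below 0 in all of these groups were Math2 1, Math2 3 and control 1, which are the 3 arrays with the highest Gapdh 3′ to 5′ ratio.

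Of the 30 genes, 9 had all 3 arrays of highest Gapdh ratio below the other 3, where 14.8% of all tested probe sets did. The 9 were Hsp90ab1, Bag3, Hsp90b1, Sdf2l1, Pdia4, Atf6, Eif2ak3, Atf4 and Ddit3. Canx alone had those 3 arrays above the other 3, as did 8.62% of probe sets. The mitochondrial genes did not share the pattern, at 0.37, 0.11 and -0.066 on the Math2 arrays and -0.19, -0.13 and -0.096 on the control arrays. This split of the arrays was made after the values were seen. With the log2 Gapdh ratio as a covariate, limma gave Hsp90b1 a log2 difference of -0.34 (SE 0.318), Hsp90ab1 0.11 (SE 0.227), Ddit3 0.080 (SE 0.312), Atf6b -1.37 (SE 0.405) and Trib3 0.82 (SE 0.354), and called none of the 30. What part the state of the RNA had in these values was not tested beyond this fit.

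**Figure D5:**
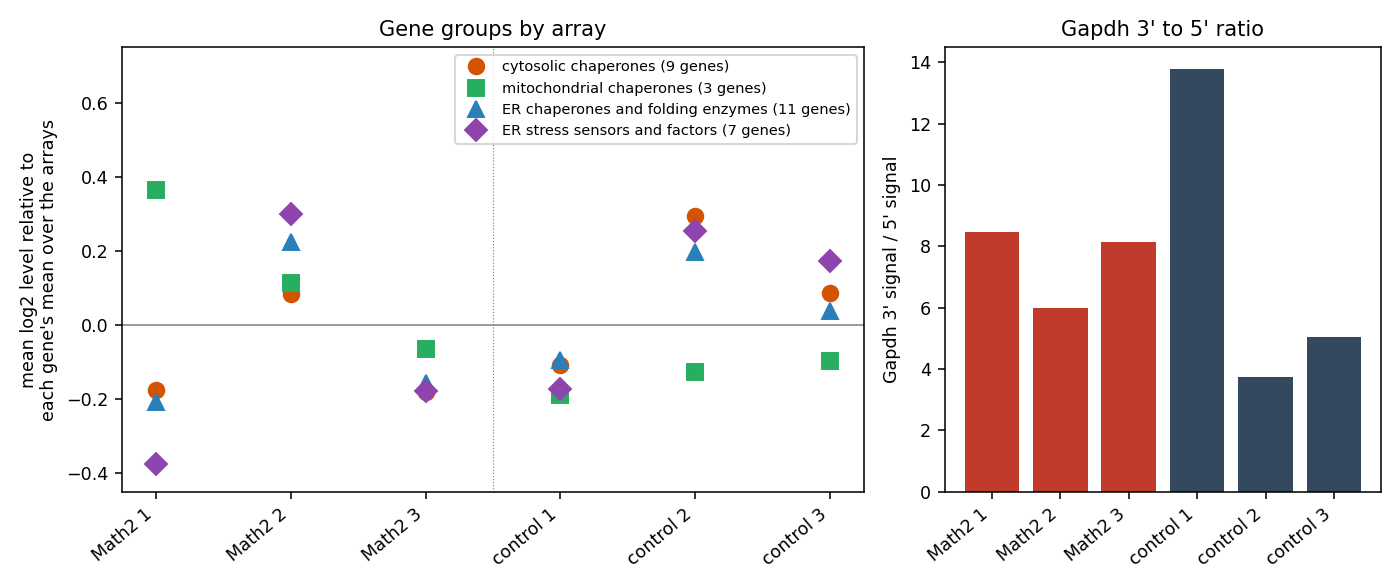
Left, mean log2 level of each gene group relative to each gene's own mean, per array; right, Gapdh 3′ to 5′ signal ratio per array. Cytosolic, ER chaperone and sensor groups are below 0 on Math2 1, Math2 3 and control 1, the arrays with the highest ratios, and the mitochondrial group is highest on Math2 1.

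Other genes of these pathways, were taken from lists wider than the 34, and none passed in limma with or without the block. Of 37 other cytosolic chaperone and heat shock factor genes 22 lay above 0 and 15 below, with a median of 0.042. With quantile normalization 18 lay above 0 and 19 below, with a median of -0.0081, so the balance of this list turned with the scaling. Groups did not overlap in 3 of the 37 on the higher side and 1 on the lower side, beside 3.7% and 4.3% of all tested probe sets. With quantile normalization these counts were 1 on the higher side and 3 on the lower side, beside 3.06% and 3.89%. Dnajb6, a J-domain protein that restrains protein aggregation, measured 5465, 2235 and 2312 on the Math2 arrays and 2096, 1377 and 1297 on the control arrays. Its groups did not overlap, at 0.97 (SE 0.354) and an adjusted p of 0.206 in the blocked limma fit, and it was as high with quantile normalization (0.98). Hspa4l, the nearest relative of Hspa4, measured 389.7, 649 and 656 in Math2 and 801, 1003 and 826 in control. It also did not overlap, on the same side as Hspa4, at -0.66 (SE 0.287). The small heat shock protein gene Hspb8, whose product works with Bag3, had -0.81 (SE 0.361) and the Hsp90 cochaperone gene Ptges3 0.35 (SE 0.181), which was 0.023 with quantile normalization.

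Of 32 other ER folding and degradation genes 13 lay above 0 and 19 below, with a median of -0.085, and 10 and 22 with quantile normalization, with a median of -0.096. Groups did not overlap in 2 of the 32, Uggt1 and Dnajc10, both lower in Math2 (4.3% of all tested probe sets). Choosing genes by p from these data favours pairs that go one way. Lower in 3 of 3 pairs were 15.2% of all tested probe sets and all 4 genes of smallest p in this list. They were Uggt1 (-0.85), Syvn1 (-0.55), Dnajc10 (-0.40) and Ero1a (-0.46). Uggt1 is the glycoprotein folding sensor, and its group mean signals lay below every array median. Syvn1 is the ubiquitin ligase of ER-associated degradation, Dnajc10 a reductase partner of BiP, and Ero1a the oxidase that recharges disulfide isomerases. Of 20 other genes of the integrated stress response 14 lay above 0 and 6 below, with a median of 0.036, and the same numbers with quantile normalization, with a median of 0.090. Groups did not overlap in 3 of the 20, all on the higher side (3.7% of all tested probe sets). Slc3a2, the heavy chain of amino acid transporters, measured 11943, 9707 and 10439 on the Math2 arrays and 8362, 7094 and 7623 on the control arrays. Asns, asparagine synthetase and like Slc3a2 a known Atf4 target, measured 3328, 2948 and 3084 in Math2 and 2390.2, 2390.0 and 2006 in control. These are 2 of the 3 without overlap, at 0.47 each (SE 0.173 and 0.202), and with quantile normalization they had 0.26 and 0.46. Atf3 (0.74, SE 0.562) and Eif2s1 (0.33, SE 0.223) were higher in 3 of 3 pairs with overlapping groups, where 13.1% of all tested probe sets were higher in 3 of 3 pairs. These 4 genes were chosen by smallest p from a list in which 6 of 20 lay below 0. Beside them, Trib3 had 0.75 in its brightest probe set and 0.62 and -0.51 in its others. The upstream Atf4 and Ddit3 had -0.11 and -0.044.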

How the data were processed

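Total RNA of selected cells was labelled from 50 ng per sample, per the labels' protocols. The deposited values are intensity signals from MAS5, per the submitters' processing notes, whose version and settings are not stated there. The MAS5 method summarises the probes of a set after subtracting mismatch and background signal. The mean without the highest and lowest 2% averaged 500 over the 6 arrays, to the nearest whole number. Signals were transformed to log2(signal + 7.42), the 10th percentile of positive values. This understates changes of dim probe sets. Probe sets at or above the 40th percentile of the mean log2 value (6.07) were tested, 57 control probe sets left out, with limma 3.58.1 in R 4.3.3 (lmFit, eBayes with trend, two-sided). The number of arrays limits the precision. The probe set of highest mean signal stood for a gene with several. Deviations from group means correlated at 0.326, 0.476 and 0.372 between arrays of the same number, so numbers were taken to pair samples, from the data. The planned main fit had no block, and the SEs printed here are from fits without it, so they leave this pairing out. With the block the SE was 0.209 for Hsp90b1, against 0.426, and 0.275 for Hyou1, against 0.590. Genes, lists and rules were chosen with earlier results of these data known. Named are all probe sets of the 34 genes as described, and 4 genes of smallest p from each wider list. The fit was tested on simulated data. Alternatives covered scaling, block, pseudocount, filter, the handling of several probe sets and left-out arrays, and after seeing the data the Gapdh ratio as a covariate and probe sets of several symbols. Promoter sequences and their coordinates are from RefSeq tables of the GRCr8 assembly, and probe sets were placed on no genome.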

Additional observations from a re-analysis of the deposited data

How the results depend on the processing

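None of the 30 genes passed the threshold under any alternative, in 539 combinations of gene and setting, and the smallest adjusted p was 0.0943 (limma, Atf6b), with a range up to 1.00 for that gene. The replicate block changed no call among the 30 genes (smallest adjusted p = 0.283). Over all probe sets it called 3 higher and 0 lower, and with quantile normalization 4 higher and 1 lower. Leaving out arrays gave 0 to 51 higher and 0 to 63 lower, the top of both ranges with the block and without the pair numbered 2. Without a block all of these counts were 0, where 326 probe sets were higher and 268 lower at an unadjusted p under 0.05.

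With each gene represented by its brightest probe set, 12 of the 30 genes kept their direction in every setting. Among these 12, Trib3 and Hspa9 each had another tested probe set on the other side of 0 (-0.51 and -0.37). The log2 differences of the genes outside these 12 turned as follows. Quantile normalization, with or without the block, gave Hspa1a 0.074, Hsph1 -0.042, Hspd1 -0.11, Hspa5 -0.24, Canx -0.23, Pdia3 -0.042, Pdia6 -0.17 and Ddit3 0.029, and put the mitochondrial median at 0.013. Median centring gave Pdia3 -0.0015. The Gapdh covariate, chosen after seeing the data, gave Hsph1 -0.051, Hsp90ab1 0.11 and Ddit3 0.080. Leaving out arrays gave Hspa1a -0.11 to 0.19, Hsph1 -0.13 to 0.14, Hsp90ab1 -0.60 to 0.28, Dnaja1 -0.046 to 0.037, Dnajb1 -0.041 to 0.20, Hsf1 -0.12 to 0.46, Hyou1 -1.13 to 0.044, Dnajb9 -0.32 to 0.23, Canx -0.031 to 0.14, Pdia3 -0.17 to 0.16, Pdia6 -0.0068 to 0.15, Herpud1 -0.46 to 0.16, Atf6 -0.053 to 0.36, Xbp1 -0.032 to 0.21, Atf4 -0.32 to 0.072 and Ddit3 -0.38 to 0.27. Quantile normalization replaces the distribution of signals on each array by their mean, and for the other alternatives the cause was not tested. The median of the sensors and factors ran from -0.26 without Math2 array 2 to 0.092 without Math2 array 1. The filter at the 60th percentile left out Atf6b.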
